A study of Rattus norvegicus with 84 samples.

Results

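Translation initiation factors are the proteins that bring the initiator tRNA, the mRNA and the ribosomal subunits together at a start codon. Their genes were taken here as every row whose symbol begins with Eif and a digit, which gave 49 genes of the 15999 gene symbols measured. All 49 were present in each of the 3 subregion tables (dentate gyrus or DG, 15374 genes, CA1, 15553, and CA3, 15706), and all 49 passed the filter on low values in each. RNA was sequenced from CA1, CA3 and the DG of 28 male F344 rats, an inbred laboratory strain, of which 16 were middle-aged (12 months) and 12 were young (5 months). No treatment or genetic change was given for either age, and the 3 subregions of a rat came from 1 hemisphere. The tissue is bulk, so fewer cells of a type and less RNA per cell cannot be told apart. The rats' numbers fall into 2 runs, 3337 to 3352 (10 rats of 12 months and 6 of 5 months) and 3593 to 3678 (6 of each age). In either run the young rats carry the lower and the middle-aged rats the higher numbers, so within a run age and number block cannot be told apart, and nothing in the labels names the runs as batches.

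In initiation, eIF2 carries the initiator tRNA to the small ribosomal subunit as a complex with GTP, and eIF1 and eIF1A help it to recognise the start codon. The exchange factor eIF2B reloads eIF2 with GTP, and phosphorylation of the eIF2 alpha subunit by stress-activated kinases blocks this step, lowers general translation and favours a few mRNAs such as Atf4. The cap-binding complex eIF4F recruits mRNAs, and the 4E-binding proteins hold its cap-binding subunit eIF4E in check until mTORC1 phosphorylates them. In hippocampal neurons both switches are known to bear on long-lasting synaptic plasticity and memory.

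The 250 bases before the transcript start that RefSeq's promoter table uses are shown for 4 genes on which the results below turn: Eif2s1, which encodes the eIF2 alpha subunit and had the largest change with age in the DG among these genes, Eif4a2, a helicase gene higher at 12 months in all 3 subregions, Eif4ebp2, the only member called lower in all 3, and Eif4e, the cap-binding subunit. The sequences are RefSeq's, of build GRCr8, which is not the build named for the counts (rn6), and each runs 5′ to 3′ along the gene. Capitals mark the motifs named beside each sequence, on either strand, and the motif CCAAT is left in lower case. The start lies at the outer end of the annotated gene for Eif2s1 and Eif4ebp2, and 1415 bases inside it for Eif4a2 and 4444 bases inside it for Eif4e.
Eif2s1 (chr6:103405630-103405879, plus strand, capitals TATAAA and TGCGCA): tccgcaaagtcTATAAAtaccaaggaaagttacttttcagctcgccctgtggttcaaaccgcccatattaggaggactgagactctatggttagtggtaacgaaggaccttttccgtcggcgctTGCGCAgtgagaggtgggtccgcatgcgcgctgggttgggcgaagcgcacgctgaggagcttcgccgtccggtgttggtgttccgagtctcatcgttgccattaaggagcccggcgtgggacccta
Eif4a2 (chr11:91275324-91275573, minus strand, capitals TATAAA): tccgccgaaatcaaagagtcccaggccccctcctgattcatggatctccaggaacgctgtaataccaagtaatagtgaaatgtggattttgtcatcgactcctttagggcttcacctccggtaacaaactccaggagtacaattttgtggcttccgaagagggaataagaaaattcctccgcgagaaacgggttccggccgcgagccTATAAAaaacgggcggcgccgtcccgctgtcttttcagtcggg
Eif4ebp2 (chr20:29942923-29943172, minus strand, capitals the reverse complement of CCGGAAG): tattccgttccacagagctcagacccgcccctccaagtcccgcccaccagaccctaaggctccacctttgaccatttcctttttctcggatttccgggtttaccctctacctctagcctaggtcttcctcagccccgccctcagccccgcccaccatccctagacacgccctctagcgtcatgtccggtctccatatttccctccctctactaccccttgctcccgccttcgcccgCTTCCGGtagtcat
Eif4e (chr2:229740503-229740752, plus strand, capitals CACGTG and TGCGCA): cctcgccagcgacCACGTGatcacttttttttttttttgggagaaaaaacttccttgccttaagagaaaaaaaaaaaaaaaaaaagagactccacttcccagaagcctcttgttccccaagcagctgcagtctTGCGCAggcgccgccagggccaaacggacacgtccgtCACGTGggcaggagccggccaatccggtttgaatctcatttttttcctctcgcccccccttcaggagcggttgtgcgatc
The motif TATAAA lies 43 bases before the start of Eif4a2 and 239 before that of Eif2s1. In Eif4e the motif CACGTG begins 237 and 80 bases before the start, and in Eif4ebp2 the ETS motif begins 14 bases before it. A promoter was matched for 46 of the 49 genes, with the start at the gene's outer end for 21 and inside the gene for 25. Of these, 18 (39.1%) held the ETS motif CCGGAAG, against 7.74% of all 27457 rat promoters of the same length. The NRF1 core TGCGCA was in 12 (26.1%, against 6.57% of all) and the E-box CACGTG, the sequence that MYC binds, in 8 (17.4%, against 5.79%). TATAAA was in 2 (4.3%, against 13.09% of all), CCAAT in 13 (28.3%, against 34.29%) and the ATF4-type element TGATGNAAN in 2 (4.3%, against 3.25%), while the cAMP element TGACGTCA was in 0 (0%, against 1.70%). None of these motifs contains the letters of another. The members' promoters had a median GC content of 59.6% and 18 CpG, against 52.0% and 6 over all. These matches describe the letters of the window and were not tested.

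Libraries held 14.4 to 23.4 M recovered reads (median 18.0 M), with similar ranges at each age. Values are normalised read counts, in which each library's gene counts were divided by its 1 size factor. RefSeq lists at least 1 pseudogene for 24 of the 49 genes, up to 10 for Eif4e, with 8 each for Eif1 and Eif4a1, and how reads shared with such copies were assigned is not given in the sources used here. Of the markers chosen for the dissection, 5 of 5 for CA1, 3 of 4 for CA3 (the exception is Coch) and 4 of 4 for the DG were highest in their own subregion. Rat 10 of the 12-month group stood apart in the summed level of 7 microglial markers, with 1985 CPM in CA1 against a median of 389 CPM over all rats (CPM, each library scaled to the same sum). Without that rat, 19, 14 and 20 members were called (CA1, CA3 and DG), and the calls lost were Eif4a1 (CA1), Eif1ax and Eif2s1 (CA3), and Eif2ak3 and Eif6 (DG, where Eif3m was gained). Choroid plexus and ependyma markers reached 1061 and 993 CPM in 2 CA3 libraries of 12 months and 341 CPM in 1 of 5 months, against group medians of 22.1 and 24.2, and without the highest of these libraries 14 members were called in CA3. Marker sums of neurons, astrocytes, oligodendrocytes and their precursors, microglia and endothelial cells overlapped between the ages in every subregion, some of them narrowly. In CA3 the 7 microglial markers summed to 326 to 1351 CPM at 12 months (median 363) and 268 to 333 CPM at 5 months (median 315). In CA1 the 7 oligodendrocyte markers had medians of 9562 CPM at 12 months and 11581 CPM at 5 months. Their part in the results was not tested. The DG markers found in CA1 libraries had a median of 171 CPM at 12 months and 94.5 CPM at 5 months. Mitochondrially encoded genes took 11.5 ± 1.81% of the library sum in CA1 at 12 months and 8.54 ± 2.43% at 5 months (SD, n = 16 and 12). In CA3 the share was 9.04 ± 1.36% at 12 months and 7.59 ± 1.56% at 5 months, and DG libraries had 7.96 ± 1.26% at 12 months and 7.06 ± 2.64% at 5 months.

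The first question was which initiation factor genes differed between the ages in each subregion. With both runs of animal numbers pooled, more members were called higher at 12 months than lower in every subregion. At an adjusted p under 0.05 (limma, Benjamini-Hochberg over all genes of the subregion), 18 of 49 rose in CA1 and 2 fell, where 12.4% of all genes tested rose and 12.8% fell. In CA3, 13 rose and 3 fell, against 10.9% and 10.8% of all genes. In the DG, 16 rose and 5 fell, against 18.5% and 18.5%. Expressed as shares of the 49, those that rose made up 36.7%, 26.5% and 32.7% (CA1, CA3 and DG). Those that fell were 4.1%, 6.1% and 10.2%, below the share of all genes in each subregion. The median log2 change over the 49 was 0.10, 0.06 and 0.07 in CA1, CA3 and the DG, against 0.004, 0.002 and 0.010 over all genes tested. Changes were small: the median size of a called change was 0.28, 0.18 and 0.28 on the log2 scale, against 0.30, 0.23 and 0.30 over all called genes. Over all 28 rats, no member had values at 12 months wholly above or below those at 5 months in any subregion, where 0.0204%, 0.047% and 0.0275% of all genes did (CA1, CA3 and DG). Dividing by the library sum in place of the authors' size factors moved the split in the DG, where 22 members then rose and 3 fell. The share of higher calls over all DG genes also moved under that scaling, to 66.6%, where the authors' factors had split them evenly. In the first run of animal numbers alone, 1, 3 and 0 members were called (CA1, CA3 and DG). That run called 3.19%, 4.83% and 0.172% of all genes. The median log2 change of the 49 was 0.03, 0.03 and -0.04 there. With the mitochondrial share in the model, 2 members rose and 0 fell in CA1, and 0 of the 20 CA1 calls were kept. In CA3 2 then rose and 6 fell, and in the DG 14 rose and 8 fell. That model called 4.95%, 13.8% and 34.8% of all genes.

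**Figure D1:**
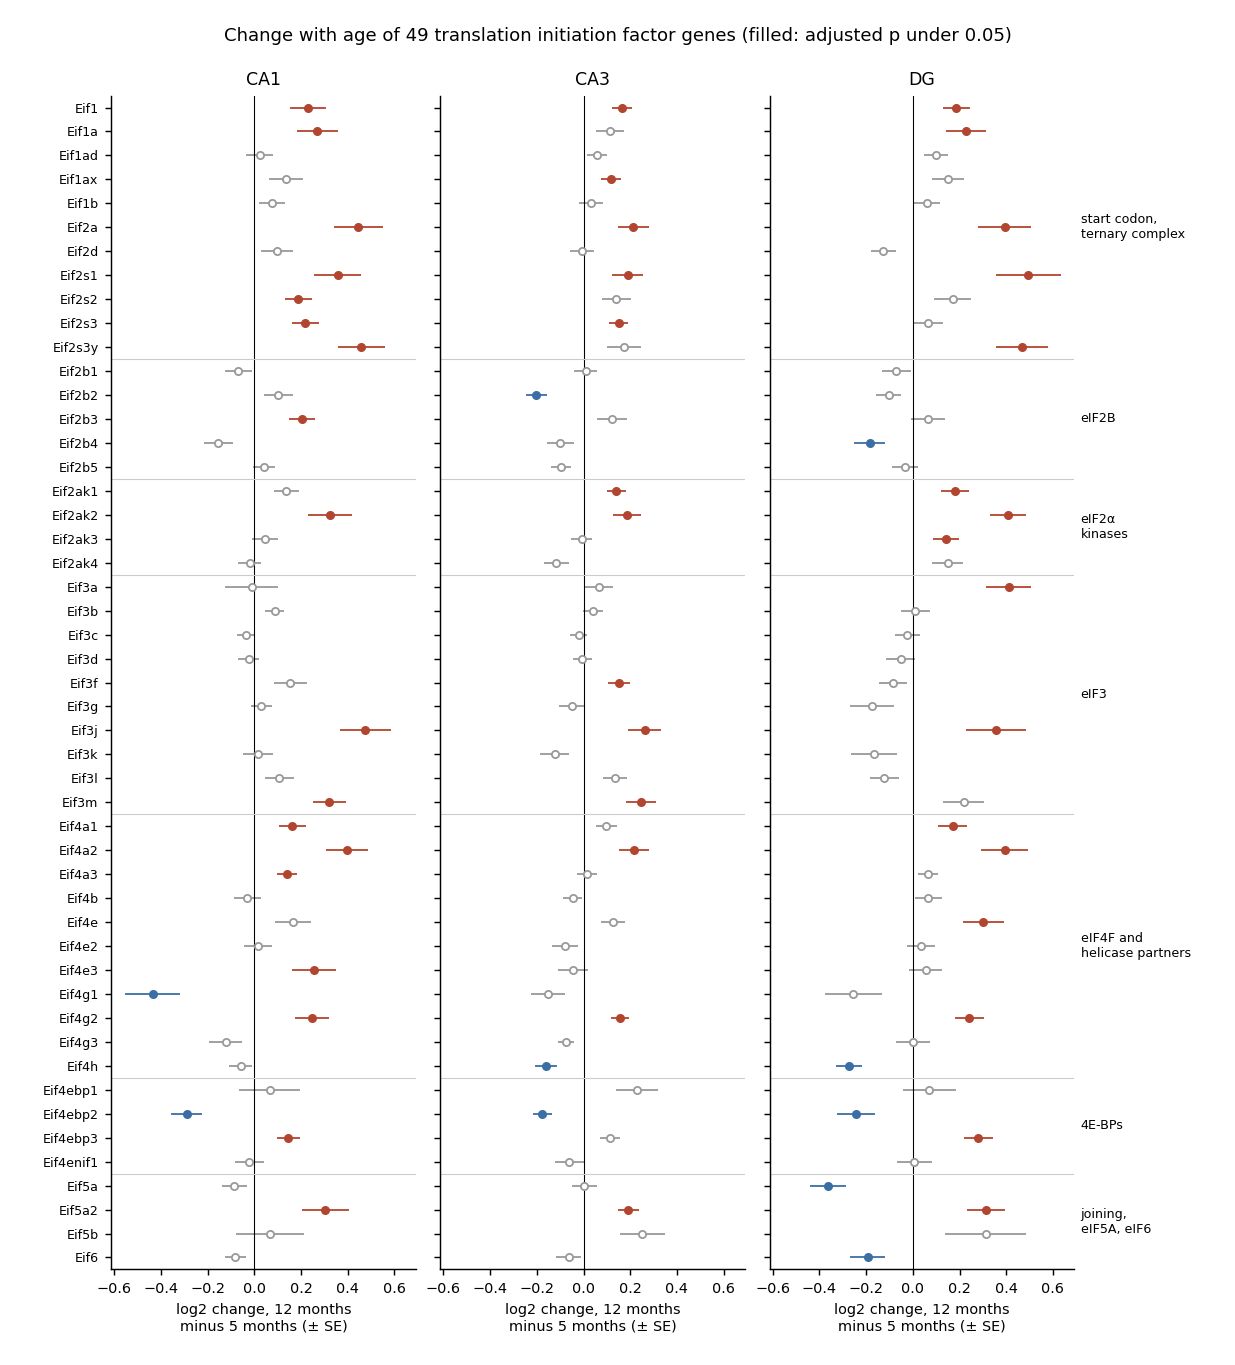
Log2 change with age (12 months minus 5 months, horizontal axis, ± SE) of the 49 genes, grouped by role, in CA1, CA3 and the DG, with filled points for an adjusted p under 0.05, red higher and blue lower at 12 months. Filled red points outnumber blue ones in each subregion (18 against 2, 13 against 3 and 16 against 5).

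The same rats supplied the 3 subregions, so calls in several of them are not independent. Called in all 3 subregions were 9 members: Eif1, Eif2a, Eif2ak2, Eif2s1, Eif3j, Eif4a2, Eif4g2 and Eif5a2 were higher at 12 months, and Eif4ebp2 was lower. Of all 14291 genes tested in the 3 subregions, 4.24% were called higher in all 3 and 4.45% lower. A further 8 were called in 2 subregions (7 higher, and Eif4h lower), 14 in 1 (9 of them higher) and 18 in none. No member was called higher in 1 subregion and lower in another.

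Some of the genes grouped here under the ternary complex and start codon selection were called higher at 12 months in each subregion, and none lower. Of 11 such members, 7 rose in CA1 and 5 each in CA3 and the DG. In the first run of animal numbers alone, Eif2s3 in CA1 was their only call. For each gene below, the 3 values at an age are the lowest, the median and the highest normalised read count over its rats, and each change is a log2 difference of 12 months minus 5 months with its SE. Eif2s1 had, in the DG, 337, 428 and 632 at 12 months, against 192, 349.6 and 495 at 5 months. Its 12-month values sat mostly above the 5-month ones, and 6 of the young rats, all of the second run of animal numbers, lay below every 12-month rat. The change differed between the runs, as given below. The change was 0.50 ± 0.14 (limma adjusted p = 0.00632), with 13 of 16 rats of 12 months above the 5-month median. In CA1, Eif2s1 had 360.1, 428 and 539.8 at 12 months, against 210.4, 342 and 480.4 at 5 months, a change of 0.36 ± 0.10 (adjusted p = 0.0117), with all 16 rats of 12 months above the 5-month median. In CA3 the change of Eif2s1 was smaller, 0.19 ± 0.07 (adjusted p = 0.0396), and this call was lost in 13 of the 28 fits that each left out 1 rat (highest adjusted p 0.0792). Of the other eIF2 subunits, Eif2s2 (beta) rose by 0.19 ± 0.06 in CA1 and had 0.14 ± 0.06 and 0.17 ± 0.08 in CA3 and the DG, where it was not called. Eif2s3 (gamma, X-linked) had, in CA3, 1498, 1624 and 1895 at 12 months, against 1269, 1499 and 1657 at 5 months, and rose there by 0.15 ± 0.04 (adjusted p = 0.00854) and in CA1 by 0.22 ± 0.06 (adjusted p = 0.00748).

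Its Y-linked copy Eif2s3y had, in CA1, 336, 404 and 593 at 12 months, against 229.7, 329 and 433 at 5 months. The lower part of the 12-month range overlapped the upper part of the 5-month one, and all 16 rats of 12 months were above the 5-month median. Eif2s3y rose by 0.46 ± 0.10 in CA1 (limma adjusted p = 0.00219) and by 0.47 ± 0.11 in the DG (adjusted p = 0.002), and had 0.17 ± 0.07 in CA3 (adjusted p = 0.0886). The 2 copies are close in sequence, and how reads shared between them were assigned is not given in the sources used here. Eif2a encodes a separate protein that can carry initiator tRNA without GTP. It had, in CA1, 282, 387 and 542 at 12 months, against 206, 271 and 373 at 5 months, and all 16 rats of 12 months were above the 5-month median. Eif2a rose by 0.45 ± 0.10 in CA1 (adjusted p = 0.00388), 0.21 ± 0.07 in CA3 (adjusted p = 0.0193) and 0.39 ± 0.11 in the DG (adjusted p = 0.00775), and no call was lost when any 1 rat was left out. Eif1, which guards against wrong start codons, had, in CA3, 3788, 4509 and 5586 at 12 months, against 3701, 4020.2 and 4367 at 5 months, where the highest 12-month values exceeded every 5-month one. Its changes were 0.23 ± 0.08 (CA1), 0.17 ± 0.04 (CA3) and 0.19 ± 0.06 (DG) (adjusted p = 0.0294, 0.00843 and 0.0135). The CA1 call of Eif1 was lost without rat 1, 8, 11 or 12 of the 5-month group (highest adjusted p 0.0586). Of the eIF1A genes, Eif1a rose in CA1 by 0.27 ± 0.09 and in the DG by 0.23 ± 0.09, and Eif1ax in CA3 by 0.12 ± 0.04. The CA1 call of Eif1a was lost without rat 1 or 2 of the 5-month group, its DG call in 11 of the 28 fits without 1 rat and the Eif1ax call in 17, and these copies are also close in sequence. Not called in any subregion were Eif1ad, Eif1b and Eif2d, with changes between -0.13 (Eif2d in the DG) and 0.10 (Eif1ad in the DG). With the mitochondrial share in the model, 0 of the 7 CA1 calls and 0 of the 5 CA3 calls of the group were kept, and 4 of the 5 in the DG were. The part of that share in these results was not tested.

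**Figure D2:**
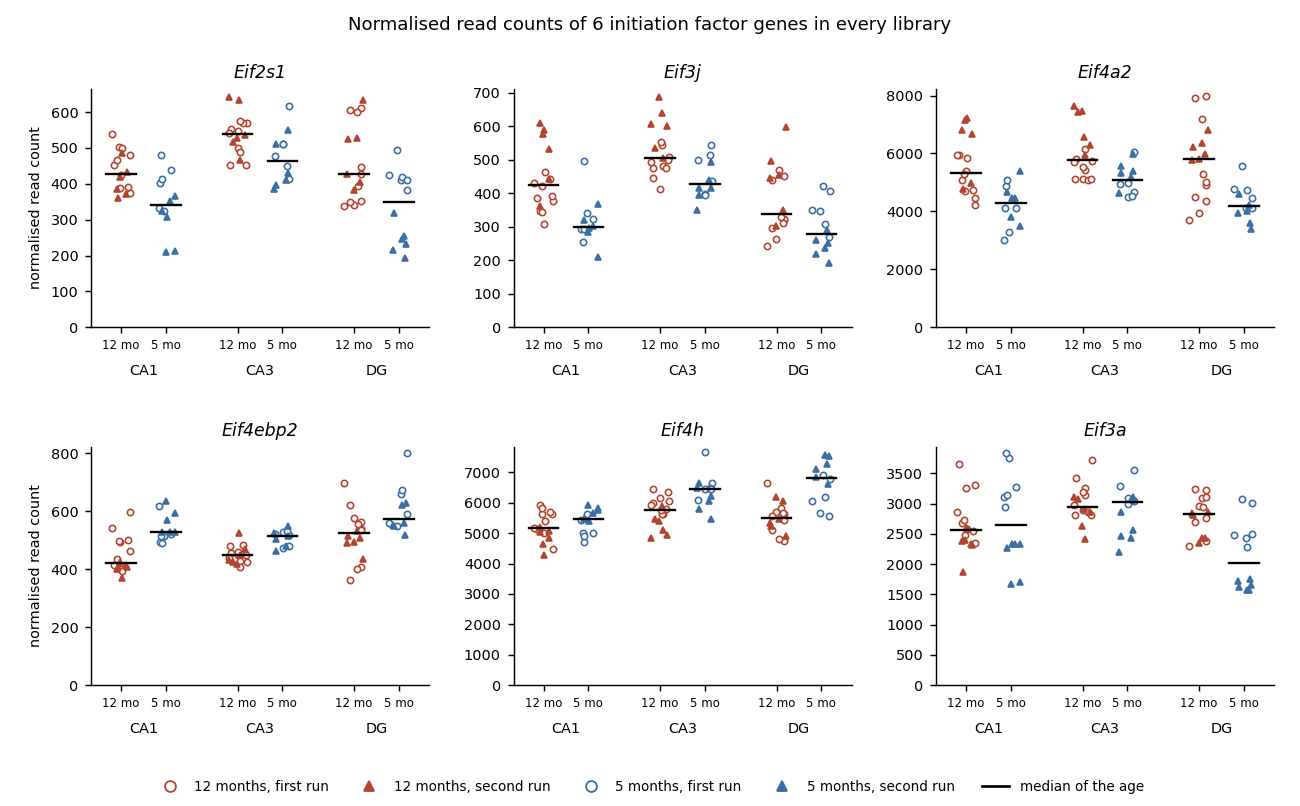
Normalised read counts (vertical axes, from 0) of Eif2s1, Eif3j, Eif4a2, Eif4ebp2, Eif4h and Eif3a in each library, with 12 months left of 5 months in each subregion, open circles for the first and filled triangles for the second run of animal numbers, and black bars at the median of the age. The ages overlap in every panel, and in the DG the second-run rats of 5 months (filled blue triangles) lie lowest for Eif2s1, Eif3j and Eif3a.

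Subunit genes of the exchange factor eIF2B were called in both directions. Of 5, 1 rose in CA1 (Eif2b3, 0.20 ± 0.06), 1 fell in CA3 (Eif2b2) and 1 fell in the DG (Eif2b4). Eif2b2, the beta subunit, had, in CA3, 556, 636 and 748 at 12 months, against 670.3, 720.2 and 836 at 5 months. Of the 16 rats of 12 months, 15 lay below the 5-month median, and the change was -0.20 ± 0.04 (limma adjusted p = 0.00226). In CA1 and the DG the changes of Eif2b2 were 0.10 ± 0.06 and -0.10 ± 0.05 and did not pass the test. Eif2b4, the delta subunit, had, in the DG, 349, 401 and 510.4 at 12 months, against 389.5, 439 and 588 at 5 months and fell by 0.18 ± 0.07 on the log2 scale (adjusted p = 0.0287). That call was lost without rat 3, 6 or 8 of the 5-month group (highest adjusted p 0.0605). The catalytic epsilon subunit Eif2b5 had, in the DG, 738, 846 and 869 at 12 months, against 689.5, 856 and 1111 at 5 months, with a change of -0.03 ± 0.06 there, 0.04 ± 0.05 in CA1 and -0.10 ± 0.04 in CA3, none of them called. Eif2b1, the alpha subunit, was not called either, with -0.07 ± 0.06 (CA1), 0.01 ± 0.05 (CA3) and -0.07 ± 0.06 (DG). With the mitochondrial share in the model, the Eif2b2 call in CA3 and the Eif2b4 call in the DG were kept. The Eif2b3 call in CA1 was lost, and Eif2b2 was called in CA1 and Eif2b5 in CA3.

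Among the 4 kinases that phosphorylate eIF2 alpha, Eif2ak2 (PKR, activated by double-stranded RNA) rose in all 3 subregions. Its values in the DG were 256, 299 and 366 at 12 months, against 177, 233 and 288 at 5 months. All 16 rats of 12 months were above the 5-month median, while the ranges overlapped between the lowest 12-month and the highest 5-month value. The change was 0.41 ± 0.08 in the DG (limma adjusted p = 0.000404), 0.33 ± 0.09 in CA1 (adjusted p = 0.0134) and 0.19 ± 0.06 in CA3 (adjusted p = 0.0235), and no call was lost when any 1 rat was left out. Eif2ak1 (HRI, the haem-regulated kinase) had, in CA3, 1065, 1203 and 1341 at 12 months, against 974, 1102 and 1221 at 5 months, and rose by 0.14 ± 0.04 there and by 0.18 ± 0.06 in the DG (adjusted p = 0.0131 and 0.021). In CA1 Eif2ak1 had 0.14 ± 0.05 (adjusted p = 0.0528), just outside the threshold. Eif2ak3 (PERK, which responds to unfolded protein in the endoplasmic reticulum) had, in the DG, 446, 532 and 647 at 12 months, against 405, 491 and 546 at 5 months. It rose by 0.14 ± 0.06 there (adjusted p = 0.0475), a call lost in 16 of the 28 fits that each left out 1 rat (highest adjusted p 0.0929). Its changes in CA1 and CA3 were 0.05 ± 0.06 and -0.01 ± 0.04. Eif2ak4 (GCN2, which senses uncharged tRNA) was called in no subregion, with -0.02 ± 0.05 (CA1), -0.12 ± 0.05 (CA3) and 0.15 ± 0.07 (DG). With the mitochondrial share in the model, the CA1 and CA3 calls of Eif2ak2 and the CA3 call of Eif2ak1 were lost. The DG calls of Eif2ak1 and Eif2ak2 were kept, that of Eif2ak3 was lost, and Eif2ak4 was called there. In the first run alone, none of the 4 kinases was called in any subregion.

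Genes that the phosphorylation of eIF2 alpha is known to switch on were called in both directions. Of 18 integrated stress response targets tested in CA1, 3 rose and 1 fell, where 12.4% of all genes rose and 12.8% fell. In CA3, 2 of 18 rose and none fell (10.9% and 10.8% of all genes), and in the DG 3 of 17 rose and 4 fell, near the 18.5% and 18.5% of all genes. The median log2 change of the list was 0.06, 0.03 and -0.03 in CA1, CA3 and the DG. Atf4, the central transcription factor of the response, averaged 3238 ± 314 at 12 months and 2755 ± 324 at 5 months in CA1 (SD, n = 16 and 12) and rose by 0.24 ± 0.06 (limma adjusted p = 0.00591). It rose in the DG by 0.32 ± 0.08. Cebpg, a partner of ATF4 on DNA, rose in all 3 subregions, by 0.26 ± 0.07 (CA1), 0.13 ± 0.04 (CA3) and 0.26 ± 0.06 (DG). Chac1, a glutathione-degrading target gene, fell by 0.38 ± 0.07 in CA1, with 175 ± 24.6 at 12 months and 227 ± 25.5 at 5 months. The other genes that rose were Vldlr in the DG (by 0.31 ± 0.06), Ppp1r15b in CA3 (by 0.16 ± 0.05) and Ddit3 in CA1 (by 0.20 ± 0.07). In the DG the genes that fell were Atf5 (by 0.32 ± 0.09), Sesn2 (by 0.18 ± 0.05), Phgdh (by 0.27 ± 0.07) and Slc3a2 (by 0.19 ± 0.06). ATF5 is a related transcription factor, SESN2 restrains mTORC1, PHGDH makes serine and SLC3A2 belongs to amino acid transporters.

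The factor eIF3 is the scaffold that holds the small subunit, eIF4F and the mRNA together. Of its 10 measured subunit genes, 2 each rose in CA1 and the DG and 3 in CA3, and none fell. Eif3j, a loosely bound subunit at the mRNA channel, rose in all 3 subregions. It had, in CA1, 308, 426 and 609 at 12 months, against 209, 298 and 496 at 5 months. All 16 rats of 12 months were above the 5-month median, and the highest young value lay inside the upper 12-month range. The changes of Eif3j were 0.48 ± 0.11 in CA1 (limma adjusted p = 0.00303), 0.26 ± 0.07 in CA3 (adjusted p = 0.00949) and 0.36 ± 0.13 in the DG (adjusted p = 0.0298). The DG call of Eif3j was lost without rat 14 of the 12-month group or rat 7, 8, 9 or 12 of the 5-month group (highest adjusted p 0.0648). Eif3m, another of its subunits, had, in CA1, 584, 699 and 888 at 12 months, against 433, 568 and 696 at 5 months. Again all 16 rats of 12 months exceeded the 5-month median. Eif3m rose by 0.32 ± 0.07 in CA1 (adjusted p = 0.00258) and 0.25 ± 0.06 in CA3 (adjusted p = 0.00639), and had 0.22 ± 0.09 in the DG (adjusted p = 0.0504), where it was not called. The largest subunit, Eif3a, was called in the DG. Its values there were 2299.8, 2832 and 3241 at 12 months, against 1570.0, 2019 and 3071 at 5 months, and all 16 rats of 12 months were above the 5-month median. Below every 12-month rat lay 7 young rats, among them all those of the second run of animal numbers. The change of Eif3a was 0.41 ± 0.10 in the DG (adjusted p = 0.00192), against -0.01 ± 0.11 in CA1 and 0.06 ± 0.06 in CA3. Eif3f rose in CA3 (0.15 ± 0.05, adjusted p = 0.0219). Eif3b, Eif3c, Eif3d, Eif3g, Eif3k and Eif3l were called in no subregion, with changes between -0.18 (Eif3g in the DG) and 0.14 (Eif3l in CA3). With the mitochondrial share in the model, none of the 2 CA1 and 3 CA3 calls were kept, and both DG calls were.

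In the eIF4F group, which unwinds and recruits capped mRNAs, the helicase genes Eif4a1 and Eif4a2 rose in at least 2 subregions, and Eif4g1 and Eif4h were lower in at least 1. Of its 11 members, 1 fell in each subregion, while 5 rose in CA1, 4 in the DG and 2 in CA3. The helicase Eif4a2, the isoform prominent in brain, had, in the DG, 3709, 5798 and 7989.6 at 12 months, against 3381, 4172 and 5560.1 at 5 months. In CA3 the values of Eif4a2 were 5082, 5771 and 7647 at 12 months, against 4498, 5081 and 6063 at 5 months, and all 16 rats of 12 months were above the 5-month median. Its changes were 0.40 ± 0.09 (CA1), 0.22 ± 0.06 (CA3) and 0.39 ± 0.10 (DG) (limma adjusted p = 0.0032, 0.017 and 0.00362), and no call was lost without any 1 rat. The paralogue Eif4a1 had, in the DG, 3605, 4162 and 5014 at 12 months, against 3167, 3657 and 4636 at 5 months and rose by 0.17 ± 0.06 there (adjusted p = 0.0286). In CA1, Eif4a1 rose by 0.16 ± 0.06 (adjusted p = 0.0369), a call lost in 10 of 28 fits without 1 rat (highest adjusted p 0.0796), and its DG call was lost without rat 7 or 8 of the 5-month group (highest adjusted p 0.0612). Eif4a3, the helicase of the exon junction complex, rose in CA1 (0.14 ± 0.04).

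Eif4g2 encodes DAP5, a scaffold without the eIF4E-binding part. In CA3 it had 6211, 6615 and 7567 at 12 months, against 5017, 6125 and 6433 at 5 months, and all 16 rats of 12 months were above the 5-month median. It rose by 0.25 ± 0.07 (CA1), 0.16 ± 0.04 (CA3) and 0.24 ± 0.06 (DG) (limma adjusted p = 0.013, 0.00497 and 0.00376). The classical scaffold Eif4g1 went the other way in CA1, with 286, 405 and 668 at 12 months, against 422, 557 and 899 at 5 months. There, 14 of 16 rats of 12 months lay below the 5-month median, and the change was -0.43 ± 0.12 (adjusted p = 0.00945). Eif4g1 had -0.15 ± 0.07 in CA3 and -0.25 ± 0.12 in the DG (adjusted p = 0.141 and 0.0985), neither called. The cap-binding subunit Eif4e, whose promoter holds the 2 copies of CACGTG shown above, had, in the DG, 875, 1106 and 1582 at 12 months, against 667, 944 and 1196 at 5 months. Its upper 12-month values exceeded every young rat, and the lower ones overlapped. Eif4e rose by 0.30 ± 0.09 in the DG (adjusted p = 0.00788), and had 0.17 ± 0.08 in CA1 and 0.13 ± 0.05 in CA3 (adjusted p = 0.101 and 0.0662). Eif4e3, an atypical cap-binding protein, rose in CA1 by 0.26 ± 0.09 (adjusted p = 0.0426), a call lost in 15 of 28 fits without 1 rat. Eif4h, a cofactor of the helicase, had, in the DG, 4758, 5514 and 6649 at 12 months, against 5571, 6825 and 7568 at 5 months. All 16 rats of 12 months lay below the 5-month median, although 5 young rats were inside the 12-month range. Eif4h fell by 0.27 ± 0.05 on the log2 scale in the DG and by 0.16 ± 0.05 in CA3 (adjusted p = 0.000645 and 0.0138), and had -0.06 ± 0.05 in CA1. Eif4b, the other cofactor, with Eif4e2 and Eif4g3, was called nowhere (changes between -0.12 for Eif4g3 in CA1 and 0.07 for Eif4b in the DG). With the mitochondrial share in the model, 4 of 5 calls were kept in the DG, 2 of 3 in CA3 and 0 of 6 in CA1.

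The inhibitors of eIF4E did not move together. Eif4ebp2, the main 4E-binding protein of the brain, was the only member called lower in all 3 subregions. It had, in CA1, 368, 421 and 599 at 12 months, against 489.6, 528 and 636 at 5 months. Of the 12-month rats, 11 lay below every young rat, and the others reached into the young range. In CA3 Eif4ebp2 had 408, 448 and 524 at 12 months, against 463, 516 and 549 at 5 months, and in the DG 363, 524 and 699 at 12 months, against 517, 575 and 802 at 5 months. The changes were -0.29 ± 0.07 (CA1), -0.18 ± 0.04 (CA3) and -0.24 ± 0.08 (DG) (limma adjusted p = 0.00303, 0.00301 and 0.0199). Lower than the 5-month median were 14, 15 and 13 of the 16 rats of 12 months, and no call was lost without any 1 rat. Eif4ebp3 went up: it had, in the DG, 865, 1195 and 1294 at 12 months, against 809.6, 908 and 1137 at 5 months and rose by 0.28 ± 0.06 there (adjusted p = 0.00123). In CA1 Eif4ebp3 rose by 0.15 ± 0.05 (adjusted p = 0.0296), a call lost without rat 8 or 11 of the 5-month group (highest adjusted p 0.0582), and it had 0.11 ± 0.04 in CA3 (adjusted p = 0.0554). Eif4ebp1 was called in no subregion, with, in CA3, 95.6, 118 and 204 at 12 months, against 86, 107 and 123 at 5 months and changes of 0.07 ± 0.13, 0.23 ± 0.09 and 0.07 ± 0.11 in CA1, CA3 and the DG. Eif4enif1, which carries eIF4E into the nucleus and into RNA granules, was not called either, with -0.02 ± 0.06 (CA1), -0.06 ± 0.06 (CA3) and 0.01 ± 0.08 (DG). With the mitochondrial share in the model, the Eif4ebp2 call was kept in CA3 and the DG and not in CA1.

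Among 18 genes that control cap binding through mTORC1, the MNK kinases and related proteins, 2 rose and 3 fell in CA1, 3 rose and 3 fell in CA3, and 6 rose and 4 fell in the DG. CA1 as a whole had 12.4% of its genes called higher and 12.8% lower. The CA3 shares were 10.9% higher and 10.8% lower, while DG genes had 18.5% each way. Whether this list, or those below, departed from these shares was not tested. Fmr1, which encodes the translational repressor lost in fragile X syndrome, rose in all 3 subregions, by 0.30 ± 0.09 (CA1), 0.32 ± 0.07 (CA3) and 0.51 ± 0.11 (DG). In the DG it averaged 571 ± 122 at 12 months and 398 ± 70.5 at 5 months (SD, n = 16 and 12). Rptor, the substrate-binding subunit of mTORC1, fell by 0.22 ± 0.06 in CA1 and 0.16 ± 0.04 in CA3, and by 0.18 ± 0.06 in the DG. Mtor, its kinase, fell by 0.26 ± 0.06 in CA1 and 0.16 ± 0.04 in CA3, and was not called in the DG (-0.13 ± 0.06). The RNA helicase gene Ddx3x rose by 0.47 ± 0.08 in the DG and 0.20 ± 0.06 in CA3. Akt1s1, an inhibitor within mTORC1, fell by 0.30 ± 0.07 in the DG and 0.19 ± 0.05 in CA3. Neither Ddx3x nor Akt1s1 was called in CA1 (0.17 ± 0.07 and -0.12 ± 0.08). Of 7 poly(A)-binding proteins and partners tested, 2 rose in CA1 and in CA3, and 4 rose and 1 fell in the DG. Paip1, which links the poly(A)-binding protein to eIF4A, rose by 0.27 ± 0.08, 0.27 ± 0.06 and 0.42 ± 0.08 in CA1, CA3 and the DG. Paip2, which opposes the poly(A)-binding protein, rose by 0.40 ± 0.10 in CA1 and 0.30 ± 0.07 in CA3, and by 0.32 ± 0.11 in the DG. The gene of this list that fell in the DG was Pabpc4 (by 0.22 ± 0.07). Of 5 initiation factors that carry other symbols, 2 rose in CA1 and 3 in the DG, and none fell. Denr, which with MCTS1 serves reinitiation and recycling, rose by 0.45 ± 0.12 in CA1 and 0.47 ± 0.14 in the DG. In CA3 none of the 5 was called, with changes between 0.05 (Bzw1) and 0.21 (Denr) and the lowest limma adjusted p, 0.0747, for Dhx29.

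Of the last group, Eif5a2 rose in all 3 subregions while its paralogue Eif5a fell in the DG. Both encode eIF5A, the hypusine-bearing factor that relieves ribosomes stalled at difficult peptide bonds. Eif5a2 had, in CA3, 1219.8, 1371 and 1648 at 12 months, against 1041, 1218 and 1369 at 5 months, where all 16 rats of 12 months were above the 5-month median, although the ranges met. Its changes were 0.30 ± 0.10 (CA1), 0.19 ± 0.05 (CA3) and 0.31 ± 0.08 (DG) (limma adjusted p = 0.0246, 0.00398 and 0.0042), and the CA1 call was lost without rat 1 or 2 of the 5-month group (highest adjusted p 0.0556). Eif5a had, in the DG, 3406, 4333 and 5448 at 12 months, against 4336, 5519 and 7681 at 5 months. All 16 rats of 12 months lay below the 5-month median there, and the change was -0.36 ± 0.08 (adjusted p = 0.00085), against -0.09 ± 0.05 in CA1 and 0.00 ± 0.05 in CA3. Eif6, which keeps the large ribosomal subunit from joining too early, had, in the DG, 959, 1114 and 1478 at 12 months, against 1065, 1242 and 1877 at 5 months and fell by 0.19 ± 0.08 (adjusted p = 0.0424), a call lost in 16 of 28 fits without 1 rat (highest adjusted p 0.091). Eif5b, the GTPase of subunit joining, varied widely, with, in the DG, 197, 334 and 424 at 12 months, against 135, 278 and 566 at 5 months. It was called in no subregion, with 0.07 ± 0.15, 0.25 ± 0.10 and 0.31 ± 0.17 in CA1, CA3 and the DG. With the mitochondrial share in the model, the Eif5a2 call was kept in CA3 and the DG and not in CA1. The DG calls of Eif5a and Eif6 were kept.

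Genes of the later steps of translation were called in both directions. The shares of all genes to set beside these lists are 12.4% higher and 12.8% lower for CA1. For CA3 they are 10.9% higher and 10.8% lower, with 18.5% each way among DG genes. Of 13 elongation factor genes, 2 rose and 4 fell in CA1, 1 rose and 5 fell in CA3, and 0 rose and 3 fell in the DG, and their median change was -0.12, -0.09 and -0.09. Eef2, the translocase, fell by 0.22 ± 0.05 (CA1), 0.19 ± 0.05 (CA3) and 0.36 ± 0.09 (DG), where it averaged 25276 ± 4207 at 12 months and 32437 ± 5864 at 5 months (SD, n = 16 and 12). Eef1a2, the neuronal tRNA carrier, fell by 0.25 ± 0.07 in CA3 and 0.38 ± 0.09 in the DG, and by 0.23 ± 0.06 in CA1. The elongation genes that rose were Eef1e1, by 0.32 ± 0.07 in CA1 and 0.20 ± 0.06 in CA3, and Eef1b2, by 0.17 ± 0.06 in CA1. Of 7 termination and recycling genes, 3 rose in CA1, 2 rose and 1 fell in CA3, and 3 rose and 1 fell in the DG. Etf1, the release factor, rose in all 3 subregions (0.19 ± 0.05, 0.14 ± 0.05 and 0.19 ± 0.05 in CA1, CA3 and the DG), and Pelo, which rescues stalled ribosomes, fell by 0.17 ± 0.06 in CA3 and 0.22 ± 0.07 in the DG. Of 9 mitochondrial translation factors, 3 rose in the DG, 1 in CA3 and 2 in CA1, and none fell, with Mtif2, the mitochondrial counterpart of eIF5B, rising by 0.35 ± 0.12 in CA1 and 0.46 ± 0.10 in the DG.

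Averaging each rat's 3 subregions on the log2 scale gave 20 members higher and 6 lower at 12 months (limma adjusted p under 0.05), where 25.4% of all genes rose and 24.6% fell. The largest increases were Eif2s3y (0.37 ± 0.07), Eif3j (0.36 ± 0.08), Eif2a (0.35 ± 0.07), Eif2s1 (0.35 ± 0.08) and Eif4a2 (0.34 ± 0.06). The 6 that fell were Eif4g1 (-0.28 ± 0.07), Eif4ebp2 (-0.24 ± 0.04), Eif4h (-0.16 ± 0.03), Eif5a (-0.15 ± 0.04), Eif2b4 (-0.15 ± 0.04) and Eif6 (-0.11 ± 0.04). By role, 8 of the 11 genes of the ternary complex and start codon selection rose, and 2 of the 10 eIF3 subunits. As CPM, 27 rose and 6 fell. That scaling also moved the higher share of all called genes to 61.3%, against 50.8% with the authors' factors.

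The levels of most members were close in the 3 subregions of a rat. As CPM, 48 of 49 members had a median within-rat ratio of the DG over CA1 within 0.5 on the log2 scale, as had 47 for the DG over CA3 and 48 for CA1 over CA3. The tables were normalised apart, so these levels are described and not tested, and the same counts were not made over all genes. Eif4e3 was highest in the DG, intermediate in CA3 and lowest in CA1, with medians over 28 rats of 20.0, 16.3 and 12.9 CPM. The DG exceeded CA1 in all 28 rats and CA3 in 26 of 28. Eif4enif1 was also highest in the DG, with medians of 52.8 CPM there, 46.3 in CA1 and 41.0 in CA3, and its DG level exceeded CA3 in all 28 rats. Eif2s3 and Eif5a2 were highest in CA3. Eif2s3 had medians of 85.3 CPM in CA3, 69.0 in CA1 and 66.2 in the DG, with CA3 above each of the others in all 28 rats, while the DG was above CA1 in 13 of 28. The smallest within-rat difference of Eif2s3 from CA3, CA1 minus CA3, was -0.002 on the log2 scale. Eif5a2 had 69.9 CPM in CA3, 55.8 in CA1 and 47.6 in the DG, and CA3 was above the DG in all 28 rats and above CA1 in 24. Eif1a had the largest median difference between CA1 and CA3, -0.58 on the log2 scale, with CA3 above CA1 in 27 of 28 rats.

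**Figure D3:**
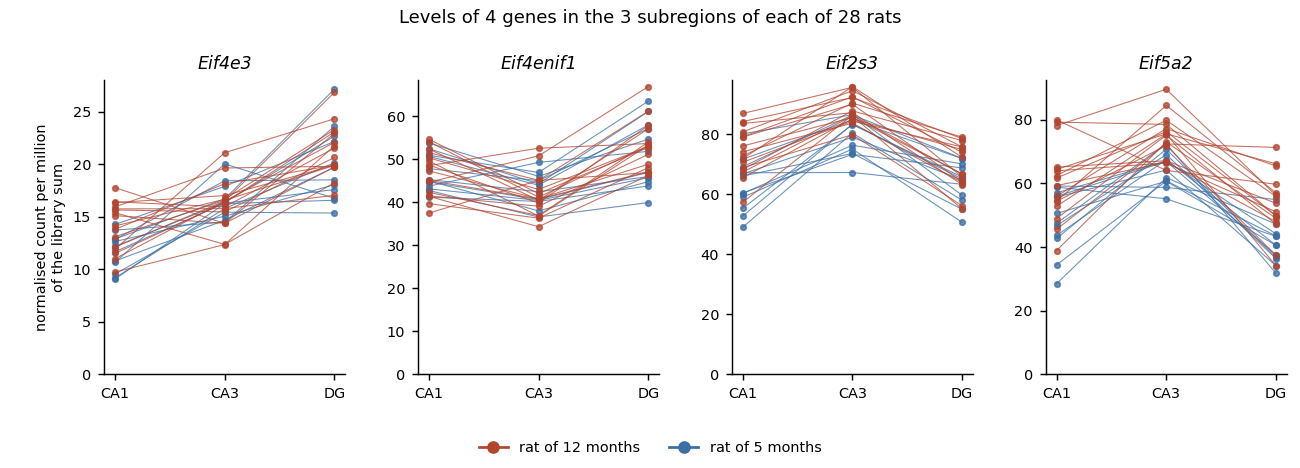
Level in CPM, the normalised count scaled to a common library sum (vertical axes, from 0) of Eif4e3, Eif4enif1, Eif2s3 and Eif5a2 in CA1, CA3 and the DG, with a line joining the 3 subregions of each of 28 rats, red at 12 months and blue at 5 months. Eif4e3 is higher in the DG than in CA1 in all 28 rats, and Eif2s3 peaks in CA3 in all 28.

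Whether the age change itself differed between subregions was tested on the within-rat difference of log2 values. Few members passed (limma adjusted p under 0.05). Eif3a had a larger change in the DG than in CA1, by 0.42 ± 0.10 (adjusted p = 0.0436), and more than in CA3, by 0.35 ± 0.09 (adjusted p = 0.0379). The within-rat difference of 12-month rats lay above the 5-month median in 15 of 16 rats for the DG against CA1 and 16 of 16 for the DG against CA3. Eif5a had a lower change in the DG than in CA3, by -0.37 ± 0.08 (adjusted p = 0.0217), with the difference below the 5-month median in 16 of 16 rats. Eif2ak4 had a larger change in the DG than in CA3, by 0.27 ± 0.07 (adjusted p = 0.0461), above the 5-month median in 15 of 16 rats. So 1 member differed for the DG against CA1, where 0.609% of all genes did, and 3 for the DG against CA3, where 2.76% of all genes did. For CA1 against CA3, limma called 0 members, and 0% of all genes. In that contrast 8 members had an unadjusted p under 0.05, 7 of them with the larger change in CA1, and no other tool was run on it. The unadjusted count was not made over all genes. The Eif5a difference stayed called in each of the 28 fits without 1 rat, while the Eif3a differences were lost in 19 (DG against CA1) and 16 (DG against CA3) and the Eif2ak4 difference in 22, with adjusted p-values up to 0.0843, 0.0794 and 0.0809.

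The changes were then compared within each run of animal numbers, since the ages form separate blocks of numbers in both. More members were called in the second run than in the first. In the first run alone, 1 member was called in CA1 (Eif2s3), 3 in CA3 (Eif2b2, Eif3f and Eif4ebp2) and 0 in the DG, where 3.19%, 4.83% and 0.172% of all genes were called. In the DG of the first run, 15 members had an unadjusted p under 0.05 with limma, 4 of them higher. The same count was not made over all genes. The second run alone called 20 members in CA1 (17 higher), where 33.8% of all genes were called. The second run called 11 in CA3 (10 higher), against 16.5% of all genes, and 30 in the DG (24 higher), against 46.9%. On the mean of the 3 subregions, 34 members were called in the second run and 10 in the first, against 58.1% and 18.4% of all genes. In the second run 28 were higher and 6 lower, where 29.1% of all genes were higher and 29% lower. In the first 4 were higher and 6 lower, where 8.54% of all genes were higher and 9.85% lower. The median change of the 49 genes was 0.15, 0.08 and 0.18 in the second run (CA1, CA3 and DG), and 0.03, 0.03 and -0.04 in the first. The direction was the same in both runs for 35, 40 and 33 of the 49 genes. Of the members called over both runs, 19 of 20, 16 of 16 and 20 of 21 had the same direction in each run. These calls were made on the same rats pooled, so agreement between the runs was favoured by the choice and is not a replication.

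**Figure D4:**
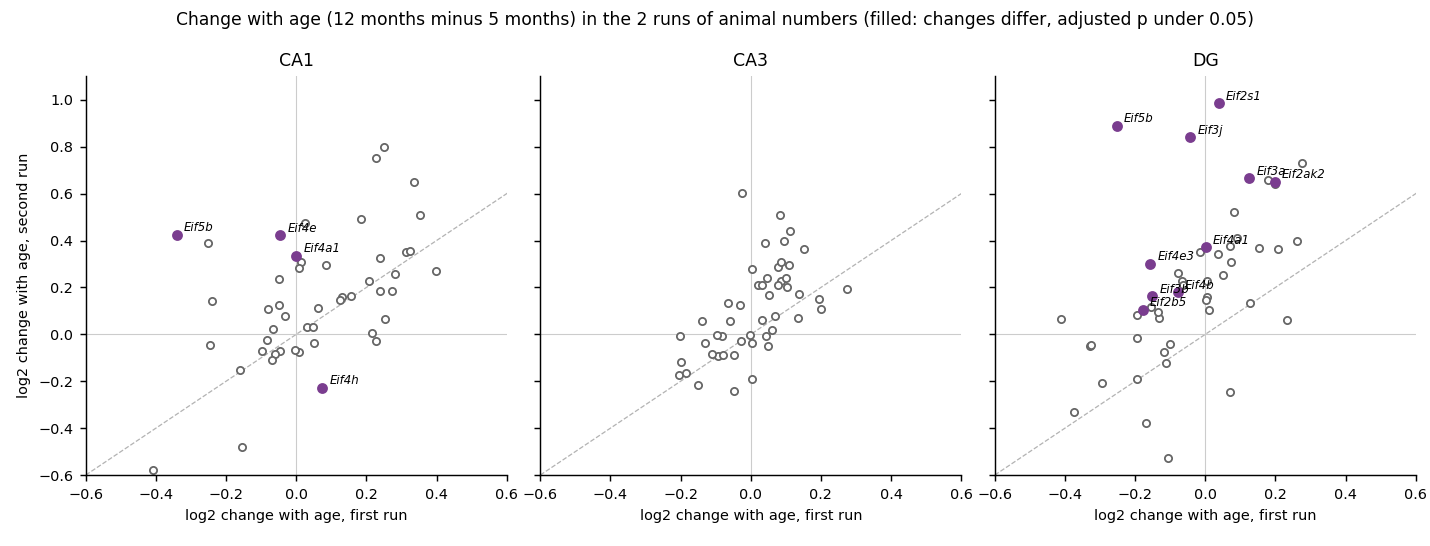
Log2 change with age (12 months minus 5 months) of the 49 genes in the first run of animal numbers (horizontal axis) and the second (vertical axis) in CA1, CA3 and the DG. Filled, labelled points are genes whose changes differed between the runs (adjusted p under 0.05, 4 in CA1, 10 in the DG and 0 in CA3), and in the DG 44 of 49 points lie above the dashed line of equal change.

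The difference between the runs was tested as an interaction with age. Called for it were 4 members in CA1, 10 in the DG and 0 in CA3, where 3.24%, 6.15% and 0.577% of all genes were called with limma. In CA3, 12 members had an unadjusted p under 0.05, a count not made over all genes. There edgeR called 0 members and DESeq2 called 2. Eif2s1 in the DG had, in the second run, 382, 477 and 632 at 12 months, against 192, 239 and 318 at 5 months. In the first run it had 337, 411 and 610.0 at 12 months, against 381, 415 and 495 at 5 months. In the second run every 12-month rat was above every young rat, and in the first the ages overlapped throughout. The change was 0.99 ± 0.13 in the second run and 0.04 ± 0.14 in the first, a difference of 0.95 ± 0.20 (adjusted p = 0.00606). Eif3j in the DG changed by 0.84 ± 0.14 in the second run and -0.04 ± 0.14 in the first (difference 0.88 ± 0.21, adjusted p = 0.0123). Eif3a in the DG had, in the second run, 2355, 2624 and 2866 at 12 months, against 1570.0, 1639.8 and 1752 at 5 months, again without overlap. In the first run Eif3a had 2299.8, 2947 and 3241 at 12 months, against 2287, 2489 and 3071 at 5 months, and its changes were 0.67 ± 0.06 in the second run and 0.13 ± 0.09 in the first (adjusted p of the difference = 0.00545). Eif5b showed the widest gap. In the DG it had, in the second run, 274, 326 and 417 at 12 months, against 135, 169 and 254 at 5 months. In the first run it had 197, 334 and 424 at 12 months, against 302, 335 and 566 at 5 months. The change was 0.89 ± 0.15 in the second run and -0.25 ± 0.17 in the first, and the difference was 1.14 ± 0.25 (adjusted p = 0.00587). Separation of the ages within a run was not counted over all genes, and these 4 genes were chosen for their difference between runs.

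These 4 differences, with that of Eif4b, stayed called in all 28 fits without 1 rat. The remaining DG calls were Eif4e3 (0.46 ± 0.12), Eif3b (0.31 ± 0.09), Eif4a1 (0.37 ± 0.11), Eif2ak2 (0.45 ± 0.13) and Eif2b5 (0.28 ± 0.09), lost in 1, 7, 10, 16 and 22 of those fits. The Eif4e3 call was lost without rat 8 of the 5-month group. In CA1 the changes of Eif5b differed by 0.77 ± 0.19 (adjusted p = 0.0246), lost without rat 12 of the 12-month group or rat 4, 7 or 8 of the 5-month group (highest adjusted p 0.0543). Those of Eif4e differed by 0.47 ± 0.13, of Eif4a1 by 0.34 ± 0.09 and of Eif4h by -0.30 ± 0.09 (adjusted p = 0.0447, 0.0402 and 0.0462), lost in 18, 16 and 21 of the 28 fits. Eif4ebp2 in the DG changed by -0.21 ± 0.07 in the second run and -0.29 ± 0.13 in the first, and Eif5a in the DG by -0.33 ± 0.07 and -0.38 ± 0.12, with adjusted p-values of the difference of 0.786 and 0.895.

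The mitochondrial share moved with the same split. In CA1 it was 12.4 ± 0.990% at 12 months and 6.65 ± 0.847% at 5 months in the second run (SD, n = 6 each), without overlap, against 11.1 ± 2.06% at 12 months and 10.4 ± 1.92% at 5 months in the first (n = 10 and 6). In CA3 it was 9.65 ± 2.04% at 12 months and 6.49 ± 1.18% at 5 months in the second run, and 8.67 ± 0.620% at 12 months and 8.69 ± 1.03% at 5 months in the first. In the DG it was 8.37 ± 1.43% at 12 months and 5.54 ± 1.14% at 5 months in the second run, and 7.72 ± 1.15% at 12 months and 8.58 ± 2.91% at 5 months in the first. With this share as a covariate, limma called 2 members in CA1 (Eif2d and Eif2b2, both higher), 8 in CA3 (2 higher and 6 lower) and 22 in the DG (14 higher and 8 lower), where 4.95%, 13.8% and 34.8% of all genes were called. None of the 20 CA1 calls, 5 of the 16 CA3 calls and 18 of the 21 DG calls were among them. The CA3 calls shared were Eif2b2, Eif4g2, Eif4h, Eif4ebp2 and Eif5a2. On the mean of the 3 subregions 18 members were called, against 31.4% of all genes. Of these 8 were higher and 10 lower, where 15.5% of all genes were higher and 16% lower. Eif4ebp2 (-0.21), Eif5a2 (0.23), Eif2ak2 (0.23) and Eif4a2 (0.25) were among them. In CA1 the change of Eif2s1 was 0.14 with the share in the model, against 0.36 without it, and in the DG 0.38 against 0.50.

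**Figure D5:**
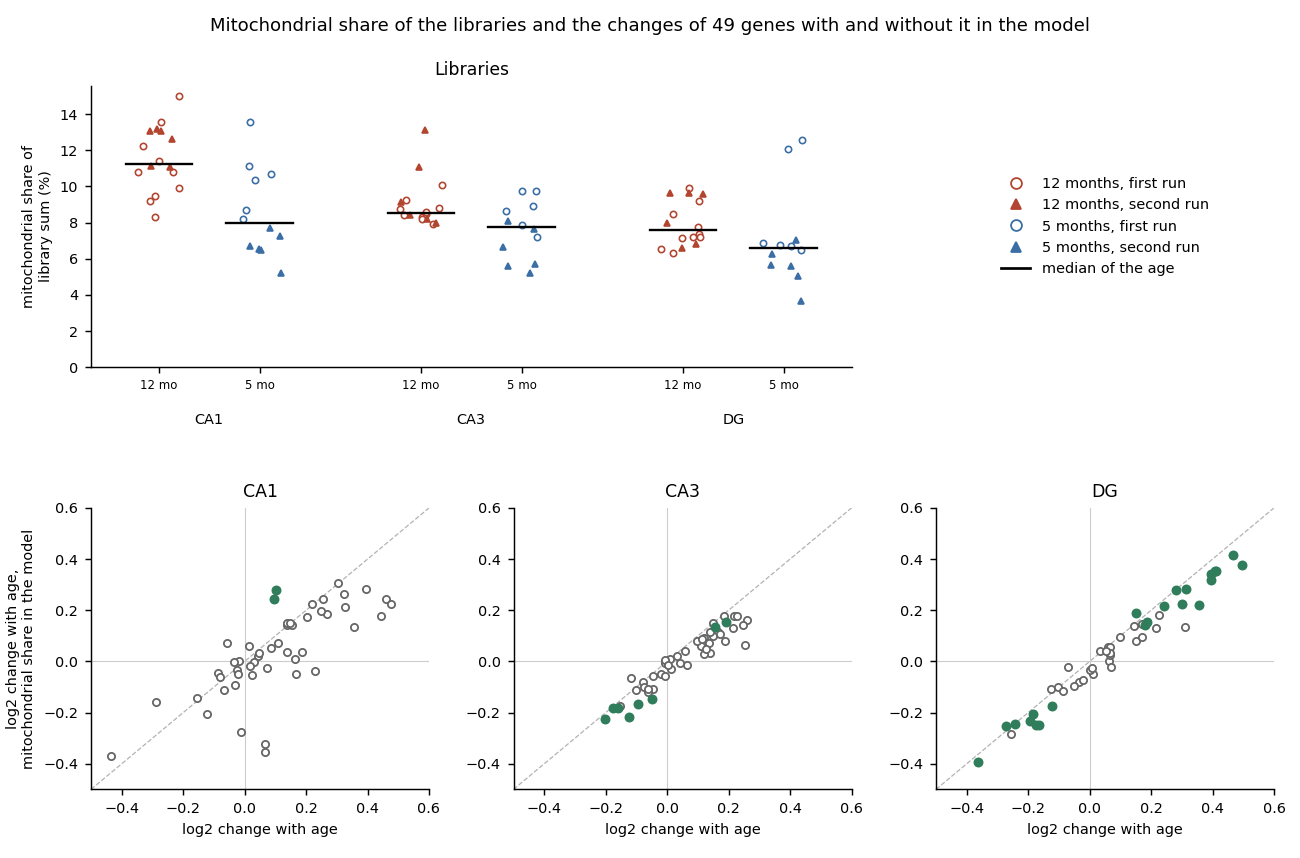
Upper panel, share of the library sum in mitochondrially encoded genes (%, from 0) in each library, 12 months left of 5 months, open circles for the first and filled triangles for the second run, bars at medians. Lower panels, log2 change with age of the 49 genes without (horizontal) and with (vertical) that share in the model, filled for an adjusted p under 0.05 with it: 22 points in the DG, 2 in CA1, 8 in CA3.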

How the data were processed

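Poly(A)-selected RNA of CA1, CA3 and the DG of 28 rats was sequenced with the Ion Total RNA-seq kit, per the labels' protocols. Reads were processed on build rn6 with Partek, STAR 2.5.3a and DESeq2, as listed in the submitters' processing notes. Strand, annotation and counting rule: not given in the sources used here. The deposited tables hold a signal per gene: the authors divided each library's gene counts by 1 size factor, in each subregion apart. Whole reads were recovered from 100.0% of values up to 1000 reads (within 0.1).

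Genes at 10 or more in at least 12 of 28 libraries were kept, and log2(value + 1) was tested with limma 3.58.1 (trended eBayes, R 4.3.3), 12 months minus 5 months, with Benjamini-Hochberg adjustment over 14685 (CA1), 14893 (CA3) and 14526 (DG) genes at 0.05. The mean of a rat's subregions and their differences (14291 genes) and the interaction of age with the run of animal numbers were tested alike. The age test was checked on simulated CA1 counts without a run effect, and the other fits were not checked in this way. Subregions were paired by the animal number in the titles, while the ages hold different rats. P-values measure the spread between rats. Alternatives were edgeR 4.0.16 and DESeq2 1.42.0 on the recovered reads, TMM and CPM scaling, pseudocounts of 0.5 and 5, no filter or a minimum of 50, either run alone, the run or the mitochondrial share as a term, and leaving out each rat. Rats are numbered within an age in the order of the records.

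The members and lists were chosen with earlier results of these data known. Full values are given for the 5 called members with the smallest p per direction and subregion, those called in all 3 subregions, those called for a difference between subregions or runs (up to 5 each), and the factors under known control (eIF2 alpha and its kinases, Eif2b5, eIF4E, its binding proteins and scaffold, eIF4A, eIF5A and Eif6). Of the integrated stress response targets, every called gene is named with its change. From the other pathway lists only a part of the called genes is named, and some with smaller p are left out. The remaining members are named as well, so that all 49 are accounted for. Promoters and pseudogenes are from RefSeq (GRCr8), where 49 of 49 symbols matched among 47357 genes.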

Additional observations from a re-analysis of the deposited data

Results flagged for a closer look

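The age change differed between subregions for 3 genes (12 months minus 5 months, limma adjusted p under 0.05 for the difference). Eif3a had a larger change in the DG than in CA1 by 0.423 on the log2 scale, and than in CA3 by 0.347. Eif5a had a lower change in the DG than in CA3 by a difference of -0.367, and Eif2ak4 a higher one by 0.266. Of all genes, 0.609% differed for the DG against CA1 and 2.76% for the DG against CA3. Of the 28 fits without 1 rat, 22 lost the Eif2ak4 difference. The Eif3a differences were lost in 19 (DG against CA1) and 16 (DG against CA3).

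The age change differed between the 2 runs of animal numbers, given here as the second run minus the first, for 10 genes in the DG. Of all genes, 6.15% differed in the DG and 3.24% in CA1. Eif5b differed by 1.14, Eif2s1 by 0.946, Eif3j by 0.883 and Eif3a by 0.540. Smaller differences were found for Eif4e3 (0.457), Eif2ak2 (0.452), Eif4a1 (0.371), Eif3b (0.314), Eif2b5 (0.283) and Eif4b (0.258). In CA1 the genes were Eif5b (0.766), Eif4e (0.467) and Eif4a1 (0.336), all with the larger change in the second run, and Eif4h (-0.303). All 10 of the DG differences were positive, as were 537 of the 893 called over all DG genes. Several of the calls in both subregions were lost when single rats were left out, as given above.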

How the results depend on the processing

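Counts of called members stayed close to those reported under edgeR (21, 17 and 21 in CA1, CA3 and the DG), under DESeq2 (22, 19 and 22), and with the run of animal numbers as a term (22, 20 and 21, and 28 on the mean of the subregions). The first run alone gave 1 member in CA1, 3 in CA3, 0 in the DG (15 at an unadjusted p under 0.05, limma) and 10 on the mean, and it gave 0 for either difference of the DG, from CA1 or from CA3. The unadjusted count was not made over all genes. The second run alone gave 0 for the DG against CA1. With the mitochondrial share in the model 2 members were called in CA1 and 8 in CA3. With the run as a term 3 members differed between the DG and CA1. For the difference between runs, CPM gave 2 in CA1 and DESeq2 gave 2 in CA3. The cause of these changes was not tested. Among called changes of named genes, the direction reversed for Eif1 in CA1 with the mitochondrial share in the model (-0.037), and in the first run alone for Eif3j in the DG (-0.042) and Eif4a1 in CA1 (-0.0006). Changes called in neither fit also turned sign, 12 in the first run alone and 9 with the mitochondrial share. Leaving out each rat gave 16 to 23 members in CA1, 14 to 21 in CA3, 16 to 24 in the DG and 25 to 29 on the mean. It gave 0 to 2 for the DG against CA1, 1 to 4 for the DG against CA3, and for the difference between runs 0 to 7 in CA1, 0 to 1 in CA3 and 5 to 12 in the DG. Of the 87 changes of named genes, edgeR left 86 on the same side of the threshold and in the same direction. Of the 49 called among them, the first run alone kept 3 and lost 46, and the mitochondrial share kept 23 and lost 26. With 16 rats of 12 months and 12 of 5 months the smallest changes lie near the threshold, so a call missed does not show that a gene did not differ.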
